A study of Homo sapiens with 6 samples.

Results

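Proteoglycans of the cell surface and of secretory granules were followed in SKOV3, an established human ovarian cancer cell line, through 10 genes among the 14884 genes measured: serglycin (SRGN), syndecans 1 to 4 (SDC1, SDC2, SDC3 and SDC4), 4 glypicans (GPC1, GPC3, GPC4 and GPC6) and CSPG4. Each gene was read from the probe set of its symbol with the highest mean over the 6 arrays. All 10 symbols were found, on 11 probe sets, because GPC1 has 2. The genes were picked as a family after serglycin had stood out among the falls of this experiment, so their levels are given as a description and carry no test.

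Control cells grew for 11 days on normal attachment plates (2D, 3 arrays). The other cells spent 11 days on low-attachment plates with 0.015% (w/v) FP001 (3D, 3 arrays), where the labels otherwise name Milli-Q water as the supplement. FP001 is known here only by that code name, and plate and additive differ together, so their parts cannot be told apart. Both groups are the same unmodified cell line in McCoy's 5A medium with 15% FBS. The labels do not say whether the 3 samples of a group were separate cultures, so every error and p-value measures the spread between samples, which may be technical. Levels are log2 RMA values, on which 1 unit is 2-fold, and differences are 3D minus 2D.

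A proteoglycan is a core protein that carries long sulfated sugar chains, heparan sulfate or chondroitin sulfate. Syndecans cross the plasma membrane, glypicans hang on it by a lipid (GPI) anchor, and both hold growth factors near their receptors through heparan sulfate. Serglycin is the intracellular member of the class: its sulfated chains bind proteases and chemokines in granules and secretory vesicles, chiefly in blood cells. It is also made by several kinds of cultured tumour cell.

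Serglycin and glypican 6 were far lower in 3D, and the other 8 core proteins lay within 0.40 of their 2D level on the log2 scale. Serglycin's arrays read 9.51, 9.52 and 9.51 in 2D against 5.52, 5.10 and 5.30 in 3D. Every 3D array was thus below every 2D array, with 3.99 between the closest pair. The means were 9.51 ± 0.0048 in 2D and 5.31 ± 0.21 in 3D (SD, n = 3 each), a difference of -4.20 ± 0.12 (SE), or 18.4-fold. It ranked 2 among the falls of all 14884 genes. The 2D values spanned 0.00905 and the 3D values 0.415, so nearly all the spread was among the 3D samples. Mean quartiles of the arrays were 2.93 and 6.10, which puts serglycin above the upper quartile in 2D and below it in 3D.

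**Figure D1:**
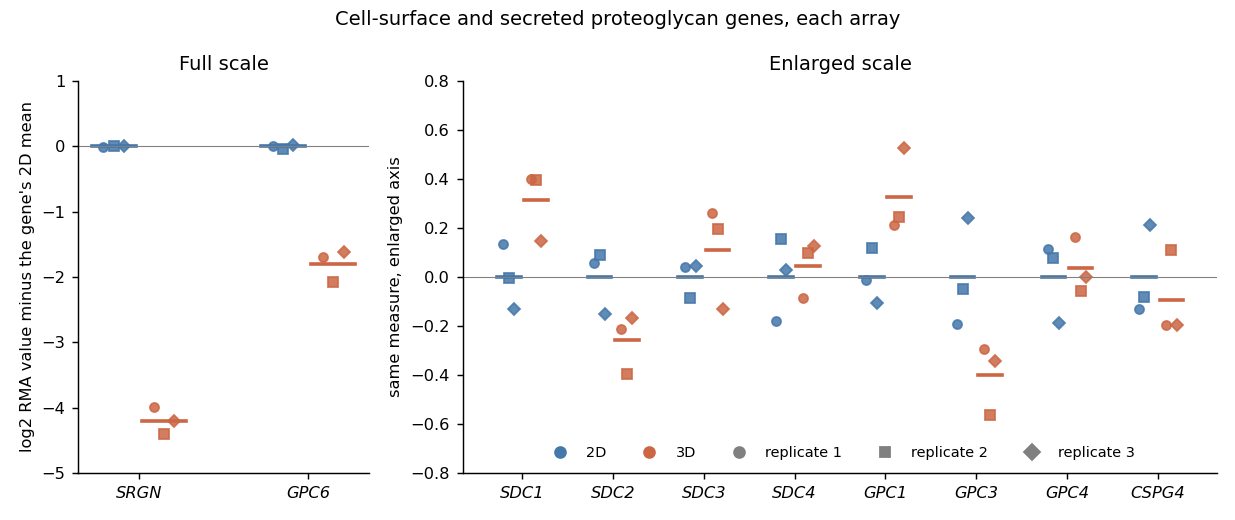
Each point is 1 array, plotted as its log2 RMA value minus the gene's mean over the 2D arrays (y axis), with 2D in blue, 3D in orange, marker shape for the replicate number and a bar for the group mean. SRGN and GPC6 are on the full scale at left, where 3D lies 4.20 and 1.80 below 2D, and the other 8 genes are on an enlarged scale at right, where no group mean differs by more than 0.40.

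Glypicans bind Wnt, Hedgehog and fibroblast growth factor proteins through core and chains. GPC6 read 9.34, 9.30 and 9.36 in 2D and 7.64, 7.26 and 7.71 in 3D. The groups were 1.59 apart at their closest, the widest gap after serglycin's among the 10 genes. Its mean went from 9.33 ± 0.03 to 7.53 ± 0.24 (SD, n = 3), a difference of -1.80 ± 0.13 (SE), or 3.48-fold, at rank 43 among all falls. GPC4, a close relative of GPC6 by sequence, gave 8.36, 8.33 and 8.06 in 2D against 8.41, 8.19 and 8.25 in 3D. Those values interleave, and the difference was 0.03 ± 0.12 (SE).

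GPC1, the glypican of most adult tissues, lay slightly the other way. It read 7.25, 7.38 and 7.16 in 2D and 7.47, 7.51 and 7.79 in 3D, a difference of 0.33 ± 0.12 (SE, n = 3), with 0.09 between the closest arrays. The second GPC1 probe set, which is dimmer, gave 0.39, the same direction. GPC3, an oncofetal glypican, read 3.37, 3.51 and 3.80 in 2D and 3.27, 3.00 and 3.22 in 3D (-0.40 ± 0.14 SE). The 3D arrays were lower, but every value lay under the array medians of 4.30 to 4.37, where RMA differences are compressed. Of the glypicans outside the chosen set, GPC2 gave -0.02 ± 0.15 and GPC5 -0.02 ± 0.21 (SE). GPC5 too lay under the array medians throughout.

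Of the glypican genes, GPC5 with GPC6 and GPC3 with GPC4 are chromosomal neighbours. GPC5 directly precedes GPC6 on chromosome 13 (RefSeq, GRCh38.p14), and their differences were -0.02 and -1.80. GPC5 read only 3.22 to 3.91, under the median in every array, so a fall could hardly show there. GPC3 and GPC4 adjoin on chromosome X, with -0.40 and 0.03. Around SRGN on chromosome 10, the adjoining coding genes KIFBP and VPS26A gave -0.16 ± 0.12 and -0.18 ± 0.10 (SE), and DDX21, DDX50 and HKDC1 further out gave -0.50, -0.31 and -0.40. All of these were on the same side as SRGN and far smaller, and 7639 of all 14884 genes had a negative difference. DDX21 alone among them had an adjusted p under 0.05 (limma, Benjamini-Hochberg, 0.0301). SUPV3L1, also near SRGN, was not measured. GPR180, near GPC6, gave 0.02. These neighbours were looked up after the values of the 10 genes had been seen.

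The start regions of GPC6 and GPC4, the glypican that was lower and a relative whose groups interleaved, are shown because they differ plainly in base composition. Each sequence is the 250 bases before the RefSeq start (GRCh38.p14), 5′ to 3′ on the gene's strand, with capitals for a match to a motif searched. The GPC6 window is chr13:93226557-93226806 on the plus strand and the GPC4 window chrX:133415490-133415739 on the minus strand.
GPC6: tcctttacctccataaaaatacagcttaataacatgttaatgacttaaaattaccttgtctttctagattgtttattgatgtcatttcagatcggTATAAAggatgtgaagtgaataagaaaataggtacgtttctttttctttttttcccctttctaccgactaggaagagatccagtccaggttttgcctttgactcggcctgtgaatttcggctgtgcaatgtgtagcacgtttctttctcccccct
GPC4: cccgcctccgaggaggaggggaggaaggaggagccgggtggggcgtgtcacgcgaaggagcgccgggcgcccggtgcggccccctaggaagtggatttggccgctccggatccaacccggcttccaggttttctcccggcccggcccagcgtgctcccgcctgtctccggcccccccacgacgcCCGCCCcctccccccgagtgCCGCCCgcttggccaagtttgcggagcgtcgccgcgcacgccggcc
GPC6 has 37.6% G and C, lower than most of the 27305 windows of that length (9.36% are lower still), and GPC4 has 76.0%, with a median over all of 58.0%. The capitals in GPC6 are the TATA box letters TATAAA, 155 bases before the start, which 11.1% of all windows hold. In GPC4 they are a pair of GC boxes, GGGCGG on the opposite strand, at 66 and 46 bases before the start. A GC box is found in 42.3% of all windows and in 6 of the 7 with an entry among the 10 genes (SDC1, SDC3, SDC4, GPC1, GPC4 and CSPG4), GPC6 being the other one. Both strands were searched. None of the 7 windows holds the letters TGACG (21.7% of all windows), TGANTCA (6.60%), GGAATG (11.9%) or CGGAAG (16.8%), the short forms of the cyclic AMP response element, AP-1, TEAD and ETS sites. The windows of SRGN, SDC2 and GPC3 were not used here. A match describes letters only.

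Syndecans link heparan sulfate outside the cell to adaptors and the actin cytoskeleton inside it. SDC4, the syndecan of focal adhesions, read 10.91, 11.25 and 11.12 in 2D and 11.01, 11.19 and 11.22 in 3D. These ranges overlap almost wholly, and the difference was 0.05 ± 0.12 (SE, n = 3). SDC1, the main syndecan of epithelia, read 8.24, 8.10 and 7.98 in 2D and 8.51, 8.51 and 8.26 in 3D, a difference of 0.32 ± 0.12. All 3D arrays were above all 2D arrays, but the closest pair was only 0.01 apart.

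SDC2, prominent in mesenchymal cells, gave a small difference of the opposite sign to the small one of SDC1. It read 8.88, 8.91 and 8.67 in 2D and 8.61, 8.43 and 8.66 in 3D (-0.26 ± 0.11 SE, n = 3), again with a closest pair only 0.02 apart. SDC3, best known from neural tissue, read 6.17, 6.04 and 6.17 in 2D and 6.39, 6.32 and 5.99 in 3D (0.11 ± 0.12 SE), so the lowest value of all 6 was a 3D one. CSPG4 (NG2), a transmembrane chondroitin sulfate proteoglycan of pericytes and glial progenitors, gave 5.24, 5.29 and 5.59 in 2D and 5.18, 5.49 and 5.18 in 3D, a difference of -0.09 ± 0.14. Its groups overlap.

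Of the 10 genes, 2 passed the threshold of the fit over all genes (limma, Benjamini-Hochberg adjusted p under 0.05), SRGN and GPC6, both lower in 3D, where 4.77% of all genes passed as lower and 5.23% as higher. The groups did not overlap for 6 of them, 4 lower and 2 higher in 3D, where 15.3% of all genes lay wholly lower and 13.8% wholly higher. A difference of at least 2-fold downward was seen in 2 of 10, against 1.17% of all genes. Nothing is read from these shares, since the choice of genes used this contrast. The median of the 10 differences was -0.03 and that of all genes -0.01. Leaving out each array in turn kept SRGN between -4.31 and -4.10 and GPC6 between -1.89 and -1.66. Of the other 8, 3 changed sign. SDC4 gave -0.04 when 2D replicate 1 was omitted. GPC4 gave -0.06 on omitting 2D replicate 3 and -0.03 on omitting 3D replicate 1. CSPG4 gave 0.01 when 2D replicate 3 was omitted. SDC3 ranged from 0.03 without 3D replicate 1 to 0.23 without 3D replicate 3. No direction is therefore read for these 4 genes. The array that stands apart from its group, 3D replicate 1, had the highest 3D value of SRGN, and without it the differences were -4.31 for SRGN and -1.85 for GPC6.

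**Figure D2:**
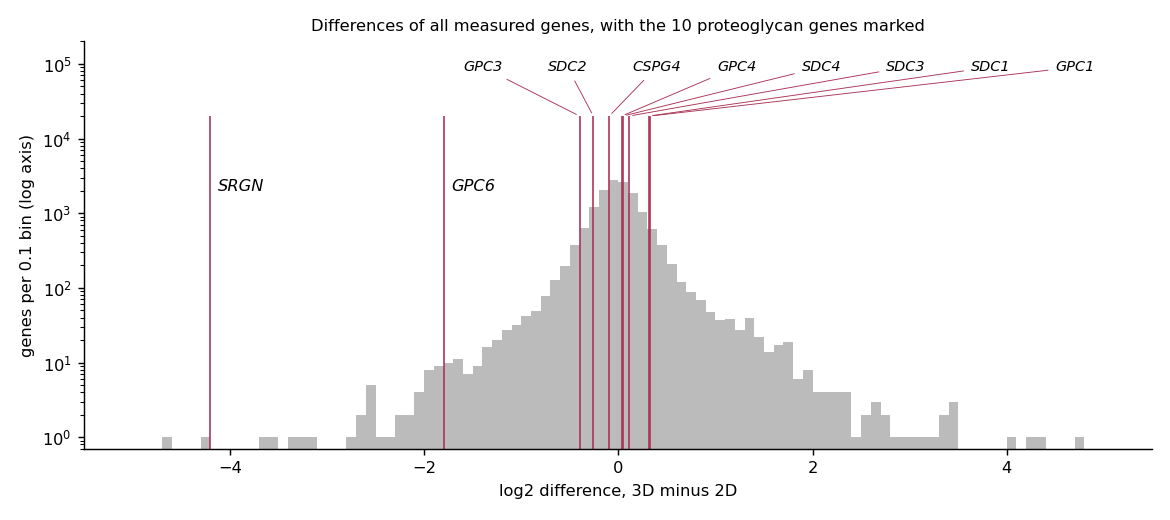
Grey bars count all 14884 genes by log2 difference, 3D minus 2D (x axis), in bins of 0.1 on a log y axis, and red lines mark the 10 proteoglycan genes. SRGN at -4.20 lies in the sparse lower tail and GPC6 at -1.80 in its shoulder, while the other 8 lie between -0.40 and 0.33 in the body of the distribution.

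The genes whose values ran closest to those of SRGN over the 6 arrays were GFRA1, ALPK2, THBS1, PSG1 and MMP13. Likeness was the Euclidean distance between log2 values centred on each gene's 2D mean, and it ran from 1.01 (GFRA1) to 1.75 (MMP13). GFRA1, a co-receptor gene of the GDNF pathway, was lower in 3D by a slightly larger step (-4.68), and the kinase gene ALPK2 by a smaller one (-3.69). Since the groups dominate this measure, it mainly picks other genes with a large fall, whatever their 3D level: THBS1 (thrombospondin) still had a mean of 8.02 in 3D. PSG1 has near-identical paralogs that make its value uncertain.

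Beyond the chosen genes, 164 genes of chain synthesis, breakdown, binding and release, and of other core proteins, were read from 11 lists. The limma fit called 43 of them, 19 that rose and 24 that fell. That is 11.6% rising and 14.6% falling, beside 5.23% and 4.77% of all genes, with a median of -0.02 beside -0.01. The lists were drawn up with results of these arrays known, and the share says nothing particular to them. Without 3D replicate 1 the fit called 46. Leaving out any other array gave fewer: 26, 24 and 27 without 2D replicates 1, 2 and 3, 23 without 3D replicate 2 and 19 without 3D replicate 3.

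The 3 genes of heparan sulfate synthesis that fell encode enzymes that modify the chain. HS3ST3B1 and HS3ST3A1, paralogs encoding 3-O-sulfotransferases that add a late sulfate, fell together. HS3ST3B1 read 7.59, 7.36 and 7.14 in 2D and 5.28, 5.61 and 5.39 in 3D, a difference of -1.94 ± 0.14 (SE, n = 3, limma adjusted p = 0.00027). HS3ST3A1 read 7.89, 7.72 and 7.76 against 6.73, 6.51 and 6.73 (-1.13 ± 0.11, limma adjusted p = 0.000665). No 3D array reached a 2D one for either gene, though the catalytic parts of this pair are nearly identical, so their probe sets may share signal. NDST1, which removes acetyl groups and adds the first sulfates, fell from 9.14 ± 0.03 to 8.43 ± 0.06 (SD, n = 3, limma adjusted p = 0.00259).

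The other genes of the chain rose or did not pass. EXTL3, which starts the heparan sulfate chain, rose by 0.55 ± 0.09 (SE, n = 3, limma adjusted p = 0.00761), and the 6-O-sulfotransferase gene HS6ST1 by 0.47 ± 0.10 (limma adjusted p = 0.0243). The polymerase genes EXT1 (-0.19 ± 0.10) and EXT2 (0.27 ± 0.09) did not pass, nor did the epimerase gene GLCE (-0.09 ± 0.09) or the 2-O-sulfotransferase gene HS2ST1 (-0.08 ± 0.09). In all, 5 of the 20 measured genes of the list passed, 2 up and 3 down, with a median of -0.03. HS6ST1 lost its call without 2D or 3D replicate 2 or 3 (adjusted p up to 0.1), whereas the other 4 kept theirs without each single array.

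Among 7 measured genes of linker assembly and of sugar and sulfate supply 1 rose, PAPSS2, which makes the sulfate donor PAPS. It read 7.93, 7.83 and 7.60 in 2D and 8.90, 8.89 and 8.98 in 3D, a rise of 1.14 ± 0.11 (SE, n = 3, limma adjusted p = 0.000832). Its isoenzyme gene PAPSS1 gave 0.33 ± 0.10 and did not pass (adjusted p = 0.0865). XYLT1, whose product puts the first sugar on the core, gave -0.12 ± 0.12, and the list median was -0.09. The other 11 genes listed, B4GALT7 among them, were not analysed here.

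Of 8 measured genes that trim or degrade heparan sulfate 2 rose and 0 fell (median -0.02). HPSE, the heparanase that cuts the chains outside the cell and in lysosomes, rose by 0.66 ± 0.15 (SE, n = 3, limma adjusted p = 0.0367), and the lysosomal sulfatase gene ARSG by 0.52 ± 0.12 (0.0315). Both calls were lost when any array other than 3D replicate 1 was left out (highest adjusted p 0.131 and 0.112). The extracellular sulfatase genes SULF1 (-0.42 ± 0.24) and SULF2 (-0.26 ± 0.10) did not pass.

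For chondroitin and dermatan sulfate, the chains of serglycin in many cells, 16 synthesis genes were measured, of which 1 rose and 3 fell (median -0.11). CHST11, a 4-O-sulfotransferase, fell the most. Its values were 6.32, 6.34 and 6.63 in 2D and 5.58, 4.98 and 5.03 in 3D, a difference of -1.23 ± 0.18 (SE, n = 3, limma adjusted p = 0.00496). CHST3, which sulfates position 6, fell by 0.48 (adjusted p = 0.0263), and the dermatan epimerase gene DSE by 0.43 (adjusted p = 0.0312). CHST15, which adds a second sulfate to the 4-sulfated unit, rose by 0.52 ± 0.10 (0.0139). The polymerase gene CHSY1 gave -0.30 ± 0.09 and did not pass (adjusted p = 0.0828). CHST11 kept its call without each array. CHST3 and DSE lost theirs when any array other than 3D replicate 1 was left out (highest adjusted p 0.11 and 0.123), and CHST15 without 2D replicate 1 or 2 or 3D replicate 2 or 3 (up to 0.0657).

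The lysosomal breakdown of chondroitin sulfate had 4 measured genes, of which 2 rose and 0 fell (median 0.32). These were the sulfatase genes GALNS (0.47 ± 0.11 SE, n = 3, limma adjusted p = 0.0315) and ARSB (0.43 ± 0.11, 0.0471). Both calls ended when an array other than 3D replicate 1 was omitted (highest adjusted p 0.123 and 0.171), and centring arrays on their medians ended that of ARSB (0.0648).

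**Figure D3:**
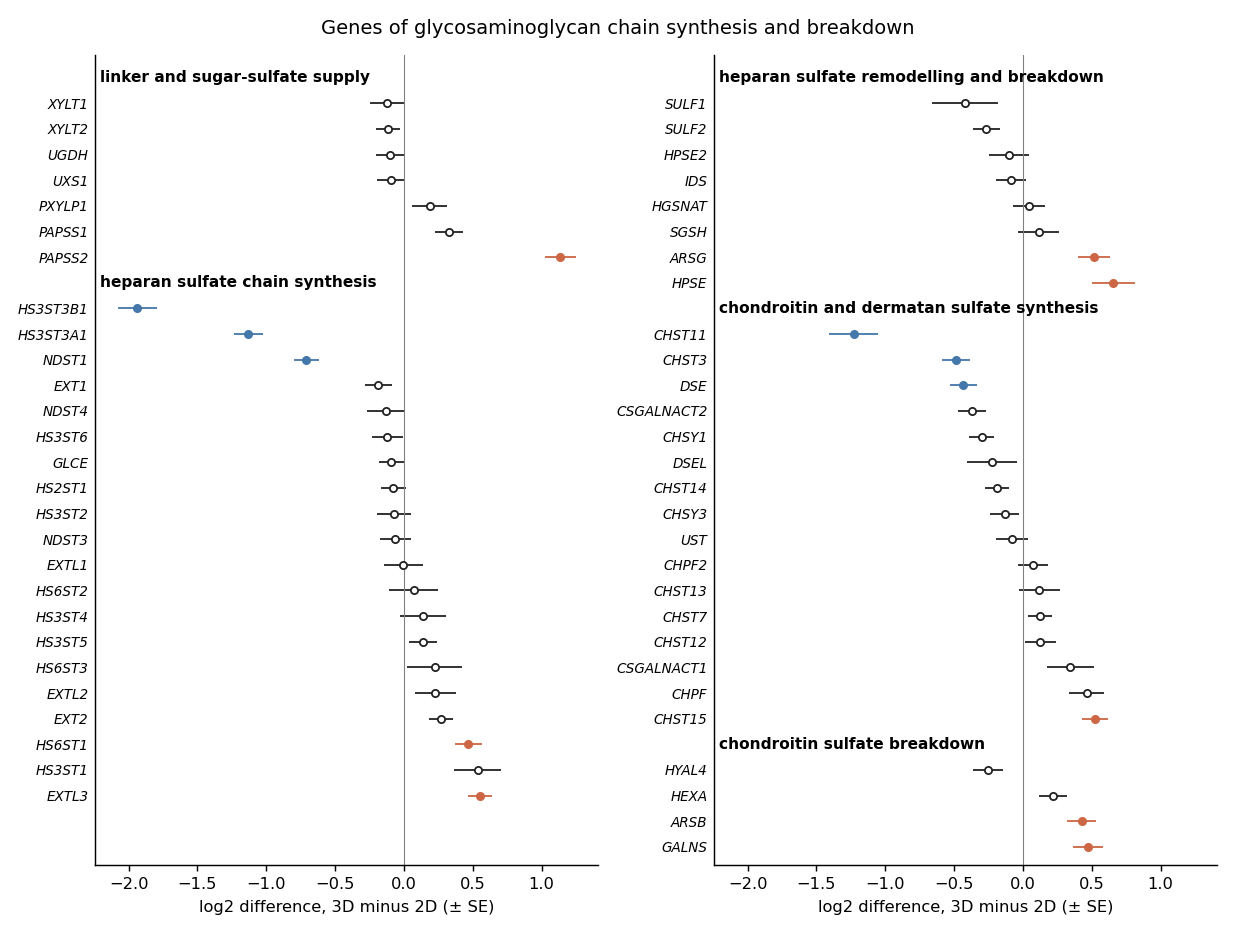
Each point is a gene's log2 difference, 3D minus 2D (x axis), with its standard error from the limma fit, grouped by step of chain synthesis or breakdown. Filled points passed an adjusted p of 0.05 (orange higher, blue lower in 3D) and open points did not. HS3ST3B1 at -1.94 and PAPSS2 at 1.14 are the extremes.

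Syndecan and glypican ectodomains are shed by membrane proteases. Of 13 measured genes of shedding and release 0 rose and 2 fell (median -0.13): the membrane-type metalloproteinase gene MMP16 (-0.45 ± 0.10 SE, n = 3, limma adjusted p = 0.03) and the prothrombin gene F2 (-0.47 ± 0.10, 0.0269). Both were lost when any array other than 3D replicate 1 was left out (highest adjusted p 0.123 and 0.111). The main sheddase genes ADAM10 (-0.20 ± 0.09), ADAM17 (-0.36 ± 0.12) and MMP14 (-0.37 ± 0.18) did not pass. F2 (4.29 to 4.95) and MMP14 (3.73 to 4.61) lay near the array medians, where differences are compressed.

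The cytoplasmic partners of syndecans had 11 measured genes, with 1 that rose and 2 that fell (median 0.09). CASK, a scaffold that binds the syndecan tail, fell by 0.50 and the kinase gene SRC by 0.39, while CTTN (cortactin) rose by 0.42 ± 0.10 (SE, n = 3, limma adjusted p = 0.026, 0.0418 and 0.0404). SDCBP, encoding the adaptor syntenin, gave 0.09 ± 0.12. These calls lay near the threshold, and most omissions of 1 array ended them. Most omissions also cut the calls over all genes, so these losses cannot show whether any single array carried a call. Those of SRC and CTTN ended when any array other than 3D replicate 1 was left out (highest adjusted p 0.164 and 0.153). That of CASK ended without 2D or 3D replicate 2 or 3 (up to 0.107) and as the mean of its probe sets (0.174). Repeated quantile normalization ended the call of SRC (0.0613) and median centring that of CTTN (0.0559).

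Of 33 measured ligands that bind heparan sulfate 2 rose and 7 fell (median 0.05). The guidance factor gene SLIT2, whose product signals through Robo with heparan sulfate, read 7.38, 7.39 and 7.33 in 2D and 8.77, 8.78 and 9.04 in 3D, a rise of 1.50 ± 0.11 (SE, n = 3, limma adjusted p = 0.00025). The growth factor gene MDK (midkine) rose by 1.09 ± 0.12 (0.00133). Every 3D array lay above every 2D array for both. VEGFA fell by 2.08 ± 0.25 (0.00235), and the matricellular gene CCN2 fell by 1.46 ± 0.26 (0.012). FGF2, the standard heparan sulfate-dependent growth factor, read 10.75, 10.80 and 10.80 in 2D and 10.04, 9.96 and 9.95 in 3D, a fall of 0.80 ± 0.09 (0.00126). It was named after its value was seen, as were the other 4 that fell, PDGFA (-0.95), HBEGF (-0.87), BMP4 (-0.84) and PDGFB (-0.66). Without 3D replicate 3 only 3 ligands fell: PDGFA, HBEGF and PDGFB lost their calls (adjusted p = 0.0514, 0.0518 and 0.0504), and so did BMP4, which also lost it without 2D replicate 1 or 3D replicate 2 (up to 0.106). Averaged over its probe sets, CCN2 missed the threshold (0.0536).

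Proteins that serglycin is known to carry in granules or secretory vesicles were measured for 14 genes, of which 1 rose and 2 fell (median -0.07). MMP13, a collagenase, went from 9.10 ± 0.17 to 5.87 ± 0.52 (SD, n = 3, limma adjusted p = 0.000275), and the chemokine gene CXCL8 from 7.02 ± 0.24 to 6.05 ± 0.18 (0.00685). LYZ (lysozyme) rose from 3.24 ± 0.11 to 5.08 ± 0.65 (0.00739), with the widest 3D spread of the 3. Its 2D values (3.12 to 3.33) lay under the array medians, so the size of that rise is uncertain. The mast cell protease gene CPA3 gave 0.06 ± 0.11 (SE). All 3 calls held without each single array.

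**Figure D4:**
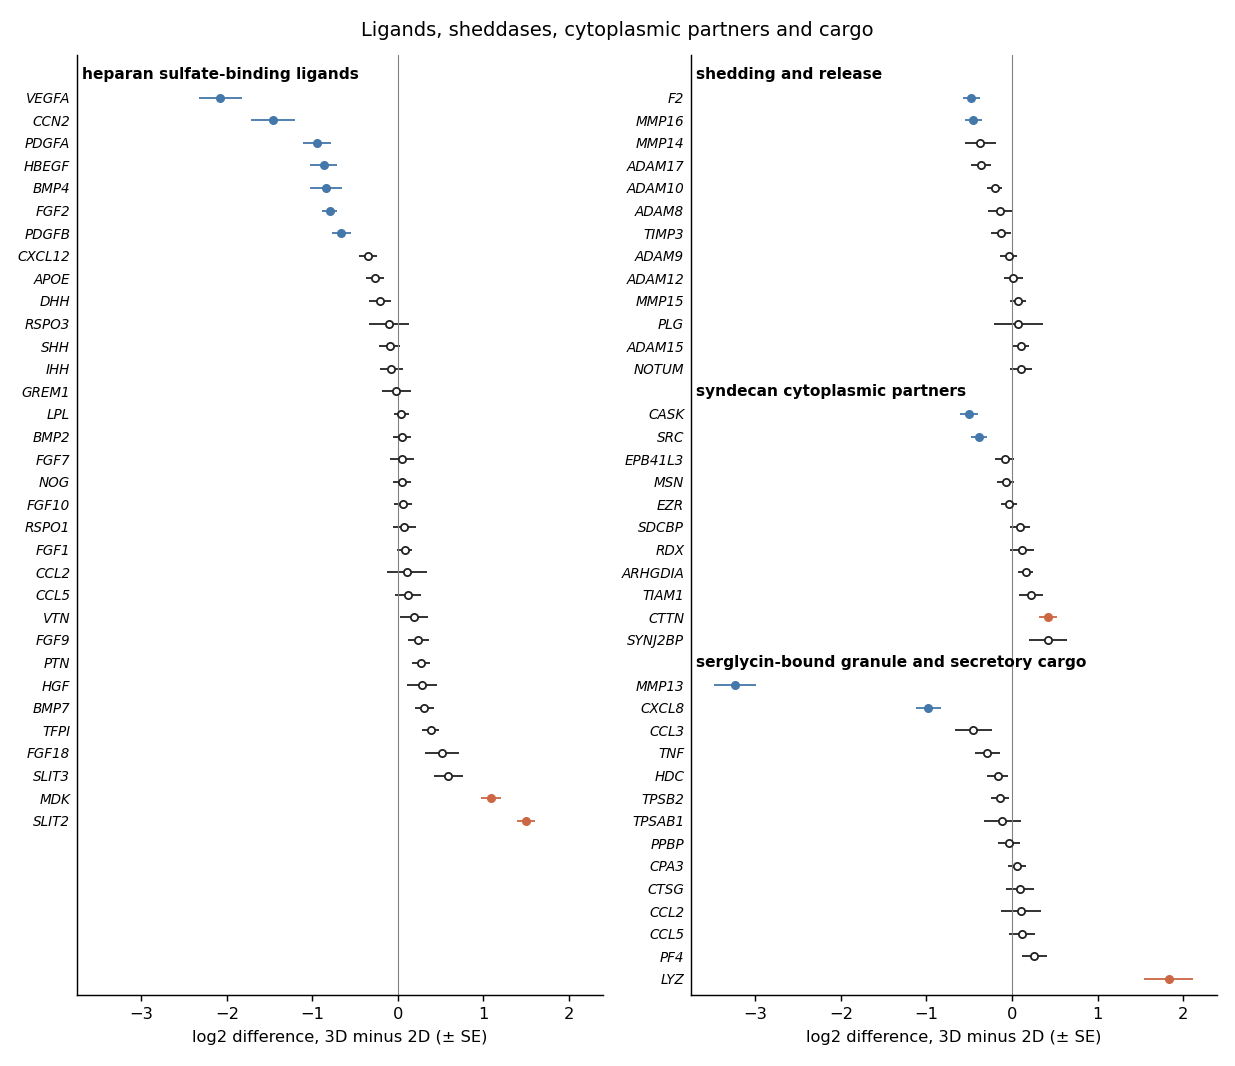
Log2 differences, 3D minus 2D (x axis, point with standard error from the limma fit), are grouped into ligands, shedding enzymes, syndecan partners and serglycin cargo. Filled points passed an adjusted p of 0.05 (orange higher, blue lower in 3D), and open points did not. Of the 33 ligands 24 are open points, with SLIT2 at 1.50 and VEGFA at -2.08 at the ends, and MMP13 at -3.24 is the lowest of all.

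Among 25 other measured proteoglycan core proteins 5 rose and 3 fell (median -0.01). The small leucine-rich proteoglycan genes LUM and EPYC rose by 4.40 ± 0.17 and 2.74 ± 0.13 (SE, n = 3, limma adjusted p = 3.58e-05 and 4.38e-05), opposite in direction to SRGN. VCAN (versican) fell by 0.82 ± 0.16 (0.0165), a call that ended without 3D replicate 2 (0.0592). CD44, the hyaluronan receptor that serglycin also binds, rose by 0.58 ± 0.14 (0.0373) but not when any array other than 3D replicate 1 was left out (highest adjusted p 0.121). The other members that passed were named after their values were seen: APLP2 (0.51) and FMOD (0.46) rose, and the basement membrane gene HSPG2 (-0.51) and the co-receptor gene NRP1 (-0.42) fell. FMOD read only 3.54 to 4.25, under the median in every array. APLP2 lost its call without 3D replicate 2 or 3 (up to 0.0585), FMOD without each single array (up to 0.14), and HSPG2 and NRP1 when an array other than 3D replicate 1 was omitted (up to 0.147 and 0.126). FMOD also failed with a trended robust variance (0.0621) and HSPG2 after repeated quantile normalization (0.0575).

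Of the 16 measured genes of hyaluronan synthesis and binding 3 rose, CD44 included, and 2 fell (median -0.05, limma adjusted p in parentheses). The synthase gene HAS2 fell by 1.18 ± 0.16 (0.00345), HABP4 by 0.72 ± 0.13 (0.0115), CEMIP rose by 0.83 ± 0.20 (0.0438) and HAPLN3 by 0.70 ± 0.10 (0.00468). In 3D, HAS2 read 3.46 to 3.74, under the array medians. The call of CEMIP was kept only when 3D replicate 2 was the array left out (otherwise up to 0.127) and it was lost after repeated quantile normalization (0.0626), and that of HABP4 without 2D replicate 2 or 3D replicate 3 (up to 0.0502).

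Markers of other cells were read because serglycin marks leukocytes. Beside the counts that follow, 5.23% of all genes passed as higher in 3D and 4.77% as lower. With 6 to 10 measured genes per list, nothing is read from these counts. Of 16 leukocyte markers 10 were measured, and 3 rose and 0 fell: LAPTM5 (2.12), LYZ (1.83) and CD68 (0.68), with limma adjusted p = 8.59e-05, 0.00739 and 0.00871. The summed linear level of the 10 was 700 to 818 in 2D and 1340 to 1370 in 3D. That sum mainly follows CD68 (mean 9.06 in 2D and 9.75 in 3D) and LAPTM5 (6.20 and 8.31), since LYZ (3.24 and 5.08) is dim. The median difference of the 10 was 0.04, and 4 of the 10 were negative. TYROBP, above the array median, gave 5.25 ± 0.22 and 5.17 ± 0.19 (SD, n = 3). CD14, CD53, CPA3 and LCP2 lay near or under the array median throughout, and PTPRC (CD45) was not analysed here. Of 6 measured endothelial and fibroblast markers 1 rose, PECAM1 (1.27, limma adjusted p = 0.00166), and their sum was 123 to 130 in 2D and 124 to 154 in 3D. In 2D, PECAM1 read 3.52 to 3.98, under the array medians. Of 10 measured SKOV3 and ovarian carcinoma markers 3 rose (KRT19 by 2.70, EPCAM by 1.76 and SOX17 by 1.63) and 2 fell (KRT7 with -0.93 and FOLR1 with -0.79). FOLR1 lost its call without each array other than 2D replicate 3 (highest adjusted p 0.114). Their summed level was 3420 to 3830 in 2D and 4680 to 6100 in 3D. PAX8, a lineage factor of this tumour, was at 10.18 ± 0.06 and 10.34 ± 0.17 (SD, n = 3). The part of these markers in the SRGN values was not tested. Less RNA per cell and fewer cells that make the RNA cannot be told apart in bulk samples.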

How the data were processed

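The deposited table holds log2 values that the authors made with RMA, per the submitters' processing notes. RMA corrects background, equalises array distributions and summarises each probe set, so dim differences are compressed. Labelling used a kit for 3' IVT, per the labels, whereas the platform annotation is that of a whole-transcript Gene ST array. The labels do not resolve this, so which part of a transcript a value reports is uncertain. The RMA version and filters were not given in the sources used here. Of 53617 probe sets, 16098 carry 1 symbol in the platform annotation, 0 several and 37519 none. All 16098 matched RefSeq (GRCh38.p14) gene identifiers, used for current symbols. The probe set with the highest mean stood for a gene.

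Groups were compared with limma 3.58.1 in R 4.3.3 (group alone, moderated variance, two-sided, Benjamini-Hochberg over 14884 genes). The text names all 10 members, up to 4 passing genes per list with the largest change, 20 preset genes (B4GALT7 and PTPRC not analysed here) and the 5 genes nearest SRGN. Genes named beyond this rule (other ligands, core proteins, markers, glypicans, neighbours and PAPSS1) were chosen after their values were seen. Members and lists were chosen with earlier results of these data known. Alternatives covered scaling, dim probe sets, probe set choice, variance model, replicate number as a block, and each array left out. The fit was tested on simulated data. Arrays have no depth, and 3 per group limit the precision.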

Additional observations from a re-analysis of the deposited data

How the results depend on the processing

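The differences of all 10 genes moved by less than 1 SD of replicates in all 13 alternatives, but this bound is no sign of stability. With 3 arrays per group, leaving out 1 array cannot move a difference that far. The filter on dim probe sets, the variance model and the block leave each difference unchanged. Differences of SDC4, GPC4 and CSPG4, near 0, changed sign when single arrays were left out. SRGN and GPC6 were at least 2-fold apart in each alternative. Across all genes 1488 passed (778 higher, 710 lower), and 775 to 1899 did so when single arrays were left out. For the pathway lists that range was 19 to 46 around 43. Same-numbered 2D and 3D arrays showed no sign of pairing, with correlations of deviations of -0.279, -0.0568 and -0.183. With 3 arrays per group these values cannot settle whether the samples were paired. With the replicate number as a block 760 genes and 21 pathway genes passed. Of 51 listed genes with a call, 25 kept it without each single array. EXT2 (adjusted p = 0.0414), SULF2 (0.048) and ADAM17 (0.0397) passed with a trended robust variance (limma). Without detection calls in the table, dim genes such as GPC3 cannot be called present or absent.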
